A study of Macaca fascicularis with 6 samples.

Results

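Type 1 conventional dendritic cells (cDC1) were studied in lung libraries of 6 cynomolgus monkeys. The cells were chosen by measured values of the same libraries. A cell was taken as a cDC1 when it held at least 1 unique molecular identifier (UMI) of at least 2 of CLEC9A, XCR1, BATF3, DNASE1L3 and FLT3, with CLEC9A or XCR1 among them, and none of C1QA, CD3D, CD3E, MS4A1 or VCAN, which mark macrophages, T cells, B cells and monocytes. Each cell also had over 500 and under 5000 detected genes and at most 25% of its UMIs in 13 mitochondrial genes. These criteria were met by 261 of the 25388 cells that passed quality control, out of 35133 deposited barcodes. In the control group 211 of 12086 cells were cDC1 (1.75%), and in the asthma group 50 of 13302 (0.376%).

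The monkeys were male and 3 to 5 years old, with 1 droplet-based 3′ library per monkey. The control group (replicates 1, 2 and 3) received saline, and the asthma group (replicates 8, 10 and 11) was sensitized by injection and then challenged through the nose with antigen of the roundworm Ascaris suum (A. suum). The lung tissue was digested with enzymes and depleted of dead cells before capture, so a share of cells is a share of those that survived these steps. The control libraries held 73, 22 and 116 cDC1, and the asthma libraries 20, 5 and 25.

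cDC1 are a rare lineage of antigen-presenting cells that depends on the transcription factors IRF8 and BATF3. They take up material of dead cells, for which CLEC9A is a receptor, and are known for presenting it on MHC class I molecules to CD8 T cells, a process called cross-presentation. XCR1 is the receptor through which they meet XCL1-secreting T and NK cells, TLR3 senses double-stranded RNA in their endosomes, and IL-12 is the cytokine with which they drive type 1 responses.

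CLEC9A was found in all 261 cells, BATF3 in 253, FLT3 in 228, DNASE1L3 in 225 and XCR1 in 25. Of the 261 cells, 13 held 2 of the 5 genes, 48 held 3, 178 held 4 and 22 held all 5. The median cell held 10 UMIs of CLEC9A, 12 of BATF3, 12 of DNASE1L3 and 3 of FLT3. Just inside the rule, the 13 cells with 2 genes had a median of 8790 UMIs and 261 CLEC9A UMIs per 1000000 UMIs (CPM). They stood at 416 CPM of IRF8 and at 3474 CPM of the macrophage gene APOE, against 1472 and 256 CPM over all 261 cDC1. Just outside it stood 9 cells with CLEC9A or XCR1 as the only 1 of the 5 genes, with a median of 3683 UMIs, 192 CLEC9A CPM, 706 IRF8 CPM, 107 APOE CPM and 556 CPM of the cytotoxic granule gene NKG7, which stood at 0 CPM in the 13 cells. A larger number was left out by the exclusion genes, because 170 of the 431 cells that met the other criteria (39.4%) held a UMI of C1QA (116 cells), CD3D (48), VCAN (30), CD3E (25) or MS4A1 (14), some of more than 1. Those 170 cells together had 927 CLEC9A CPM and 1200.3 IRF8 CPM, against 925 and 1472 CPM in the 261 cDC1. They also had 3570 APOE CPM against 256, 392 CPM of the complement gene C1QB against 6.63, and 5312 LYZ CPM against 2689. Their median was 17662 UMIs per cell against 13165. A further 42 cells met the gene criteria but had over 25% mitochondrial UMIs, and 5 had too few genes.

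IRF8, the lineage factor that the rule did not use, was checked as the independent marker. It was detected in 253 of 261 cDC1 (96.9%, exact 95% interval 94.1 to 98.7), with a median of 17 UMIs per cell. Detection alone did not set cDC1 apart, since IRF8 was also found in 72.9% of macrophages and 29.4% of monocytes, as gated below. The IRF8 level in cDC1 was 1221, 1517 and 1522 CPM in control replicates 1, 2 and 3 and 1726, 2414 and 1235 CPM in asthma replicates 8, 10 and 11. These levels overlapped between the groups. In 2587 monocytes (VCAN with CD14, S100A8 or S100A9) IRF8 stood at 102 ± 17.5 CPM (SD, n = 6), in 1990 macrophages (C1QA with C1QB, MARCO, MRC1 or APOE) at 153 ± 15.6 CPM, and in 28 dendritic cells gated on CLEC10A with CD1E, FCER1A or PKIB at 80.2 CPM over pooled cells. The 261 cDC1 were 1.03% of the cells and held 19.6% of all IRF8 UMIs. All comparisons with other cells are descriptions without a test, because the rule used the counts of the same cells.

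Levels were compared between the gates for a selection of the genes in the files. Among those outside the rule, the 15 with the largest ratio of the cDC1 level over the highest of the other gates (10 CPM added) were C1orf54, CADM1, DBN1, GCSAM, CXCR3, CCK, CLNK, IRF8, BTLA, TLR3, NGFR, CPNE3, WDFY4, IL12B and MATK. C1orf54, a gene of unclear function that marks cDC1 in several species, reached 632 ± 150.2 CPM (SD over the 5 libraries with at least 10 cDC1), against 1.35 CPM in monocytes and 3.46 in macrophages, and the cDC1 held 51.3% of its UMIs. CADM1, an adhesion molecule of cDC1, stood at 279 ± 86.3 CPM against 5.55 and 10.6. WDFY4, which is needed for cross-presentation of cell-associated antigen, stood at 451 ± 73.5 CPM against 33.1 and 46.0. TLR3 reached 89.2 ± 19.6 CPM against 1.27 and 2.50, and CLNK, an adaptor of immune receptor signalling, 223 ± 57.1 against 1.92 and 1.19. The chemokine receptor CXCR3 stood at 127 ± 20.1 CPM and the inhibitory receptor BTLA at 95.6 ± 33.5. For 13 of the 15 genes the cDC1 were above both the monocytes and the macrophages in each of the 5 libraries. The exceptions were CCK, above in 4 of 5, and IL12B, above in 3 of 5. Over all cells outside the cDC1, MATK stood at 60.7 ± 16.9 CPM, close to its 66.6 ± 25.9 CPM in cDC1.

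**Figure D1:**
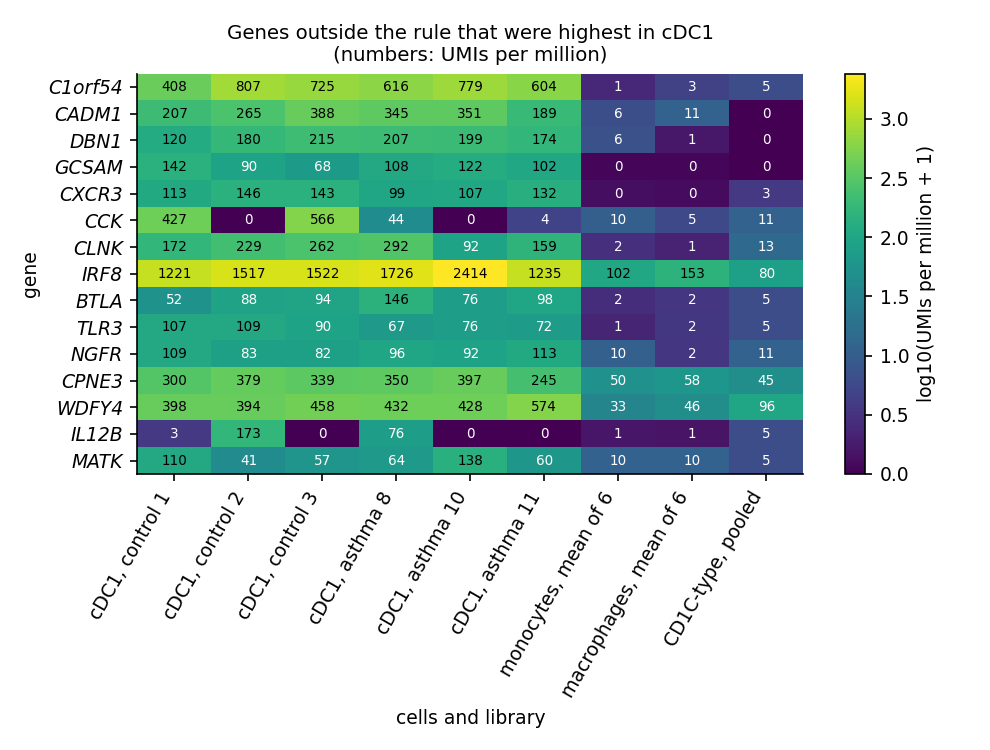
Levels of the 15 genes in cDC1 of each library and in 3 other gates, as CPM of the summed UMIs (numbers) on a log10 colour scale. Rows are genes, and the first 6 columns are cDC1 libraries. In 13 of 15 rows the cDC1 are above monocytes and macrophages in each of the 5 libraries with at least 10 cDC1. CCK and IL12B are high in some libraries only.

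Detection per cell is given for some of these genes. WDFY4 was found in 92.7% of cDC1, but also in 15.6% of monocytes and 41.8% of macrophages. CADM1 was found in 81.6% of cDC1, 2.67% of monocytes and 9.80% of macrophages, CLNK in 77.0%, 1.04% and 1.31%, and C1orf54 in 87.4%, 0.889% and 4.52%. The medians of UMIs per cell were 10497 to 17664.5 in cDC1 of the 6 libraries and 10434 to 21240 in macrophages, but only 1126 to 7632 in monocytes. The part of depth in the shares of monocytes was not tested. In asthma replicates 8 and 10 the monocyte gate had medians of 1208 and 1126 UMIs per cell. LYZ was detected in 69.3% and 41.3% of its cells there, against 76.8% over all libraries. CSF3R, counted below among the neutrophil markers, stood at 314 ± 109 CPM in this gate and at 7.82 CPM in cDC1. The share of other cell types in the gate was not tested.

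Genes that other cell types use gave the purity of the cells. Of the 8 macrophage markers 7 had UMIs, with C1QA at 0 by the rule, and their sum was 1253, 153 and 72.0 CPM in the control libraries and 756, 61.1 and 52.9 CPM in asthma replicates 8, 10 and 11. Their most abundant gene was APOE, a lipid carrier of macrophages, of whose 889 UMIs 422 were in 1 cell. Of the 6 monocyte markers in the files 5 had UMIs, with VCAN at 0 by the rule and a sum of 1918 to 3233 CPM. Nearly all of this was lysozyme (LYZ, 9322 of 9517 UMIs), which stood at 2436 ± 482 CPM in cDC1 against 9749 ± 3966 in monocytes. The 9 T and NK cell markers summed to 59.1, 68.1 and 213 CPM in the control libraries and 61.3, 76.4 and 159 CPM in the asthma libraries, with CD3D and CD3E at 0 by the rule and CD2 as the most abundant. CD2 was detected in 37.2% of cDC1 and in 1.04% of monocytes. The B cell markers summed to at most 22.8 CPM, the mast cell markers to at most 15.3 CPM and the neutrophil markers to at most 11.3 CPM. In plasma cell markers the sum was 140 to 225 CPM in all 6 libraries, almost all of it immunoglobulin IGKC. Stromal and endothelial markers stayed at or under 106 and 98.2 CPM, and mesothelial markers at or under 107. Epithelial markers summed to 5421 CPM in control replicate 1 and to 22.6 to 215 CPM in the other 5 libraries.

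Most of the epithelial signal in control replicate 1 came from a single cell. SFTPC, the surfactant protein of alveolar type 2 cells, had 4090 UMIs in the 261 cDC1, of which 3906 (95.5%) were in 1 cell of control replicate 1. This cell had 21541 UMIs in all, 4 of CLEC9A and 8 of IRF8, and was among the cells with the highest doublet scores. CHIT1, a chitinase of macrophages, had 305 of its 321 UMIs in 1 cell of the same library. Low counts of SFTPC were more widespread, with at least 1 UMI in 99 of the 261 cDC1 (37.9%). In asthma replicate 11 this held for 23 of 25 cDC1, 87.9% of monocytes and 88.8% of macrophages. Doublet scores were high in 8 of the 261 cDC1 (3.07%) and in 3.41% of all cells. No barcode of a cDC1 was shared with a cDC1 of another library, and 1 was found among the other cells of another library.

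The markers of mature dendritic cells and IL12B were also found in few cells. This did not hold for every gene of the wider maturation and migration list used below. Its member IDO1 was detected in 131 of 261 cDC1 (50.2%), in 60.1% of monocytes and in 25.4% of macrophages. The 5 markers of mature dendritic cells summed to 67.2, 557 and 31.7 CPM in the control libraries and 616, 30.6 and 3.78 CPM in the asthma libraries, with CCL19 at 0. LAMP3, a lysosomal protein of mature dendritic cells, was detected in 6 cells (2.30%), FSCN1, the actin bundler of their dendrites, in 17 (6.51%), and CCR7, the receptor that leads them to lymph nodes, in 3 (1.15%). CCL22, a chemokine for CCR4-bearing T cells, had 226 UMIs in 10 cells, of which 147 were in 1 cell of asthma replicate 8. IL12B, the p40 chain of IL-12, had 99 UMIs in 5 cells, of which 71 were in 1 cell of control replicate 2. The 3 highest cells held 89.4% of the UMIs of CCL22, 98.0% of IL12B and 83.2% of FSCN1, against 3.67% for IRF8.

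**Figure D2:**
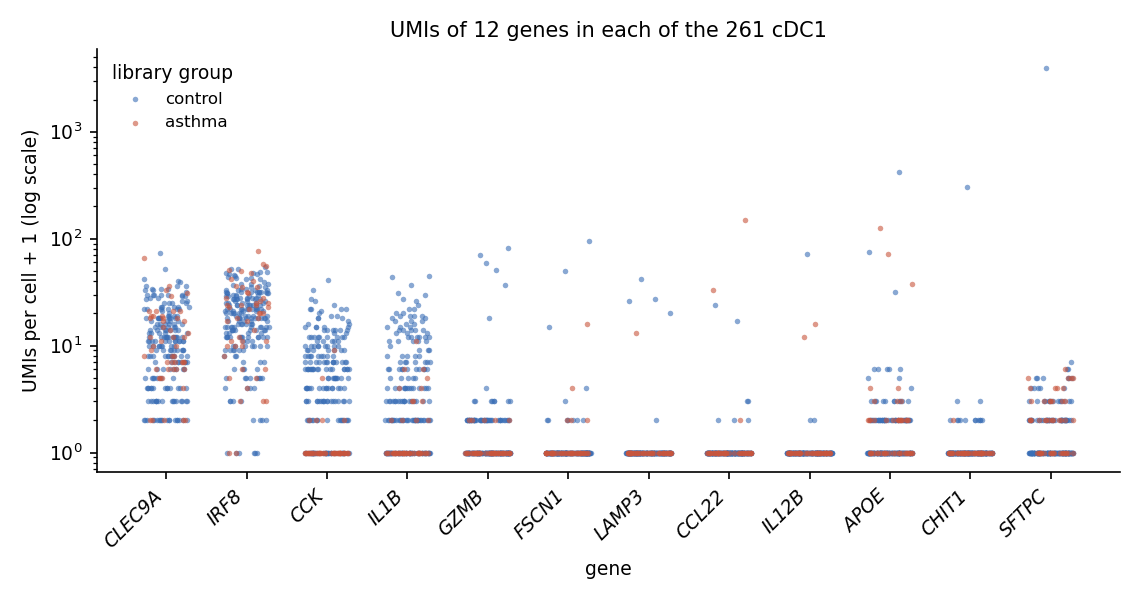
UMIs of 12 genes (log scale, 1 added) in each of the 261 cDC1, with 1 point per cell coloured by group. CLEC9A and IRF8 are spread over the cells, whereas FSCN1, LAMP3, CCL22, IL12B, CHIT1 and SFTPC are at 0 or low in most cells and at 10 UMIs or more in 1 to 5.

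Whether the number of cDC1 differed between asthma and control lungs was examined over the 6 libraries. The share of cDC1 among cells that passed quality control was 1.62% (exact 95% interval 1.27 to 2.03) in control replicate 1, 0.627% (0.393 to 0.947) in replicate 2 and 2.85% (2.36 to 3.41) in replicate 3. In the asthma group it was 0.465% (0.284 to 0.717) in replicate 8, 0.106% (0.0344 to 0.247) in replicate 10 and 0.584% (0.379 to 0.861) in replicate 11. Every control library was above every asthma library, although the interval of control replicate 2 overlapped those of asthma replicates 8 and 11. The mean was 1.70% ± 1.12 in control and 0.385% ± 0.249 in asthma (SD, n = 3 each), a 4.41-fold ratio and a difference of -1.31 percentage points (two-sided exact permutation test over 20 assignments, p = 0.1, the smallest p that 3 against 3 allow). The design therefore could not reach a p under 0.05. Without control replicate 3, the library with the most cDC1, the difference was -0.738 points and the ratio 2.92-fold. The intervals cover counting error only.

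The order was less clear against other denominators. Of cells with a UMI of the leukocyte gene PTPRC, cDC1 made up 1.94%, 0.705% and 3.53% in the control libraries and 0.604%, 0.137% and 0.896% in the asthma libraries, so that control replicate 2 lay below asthma replicate 11. The means were 2.06% ± 1.42 and 0.545% ± 0.383 (SD, n = 3 each, exact permutation test, p = 0.2). Per 100 macrophages there were 13.0, 16.3 and 65.5 cDC1 in the control libraries and 7.07, 0.931 and 8.47 in the asthma libraries, without overlap (exact permutation test, n = 3 each, p = 0.1). Per 100 monocytes there were 20.5, 4.65 and 31.4 against 6.39, 1.29 and 3.63, with overlap (exact permutation test, n = 3 each, p = 0.2). Without control replicate 3 the ratio of control to asthma went from 3.77-fold to 2.42-fold among PTPRC-positive cells and from 5.75-fold to 2.66-fold per 100 macrophages. Monocytes themselves made up 10.2% ± 2.93 and 10.5% ± 4.84 of the cells and macrophages 6.89% ± 4.85 and 8.28% ± 2.69 in control and asthma (exact permutation tests, n = 3 each, p = 0.9 and p = 0.6). For these 4 measures of cDC1 abundance the p-value adjusted by Benjamini-Hochberg was 0.2 in each case.

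**Figure D3:**
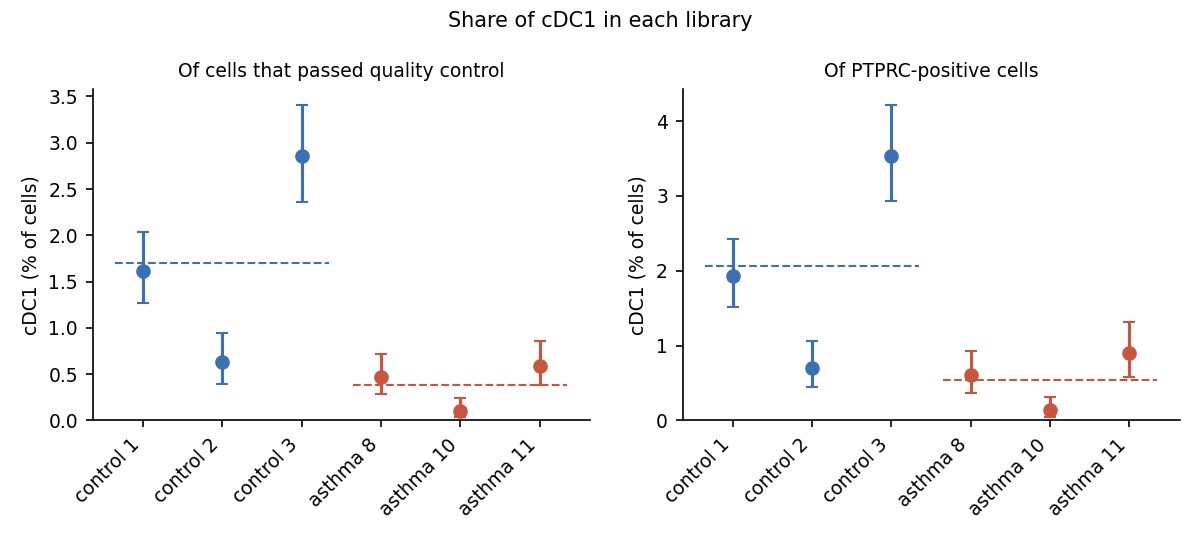
Share of cDC1 per library, as percent of cells that passed quality control (left) and of PTPRC-positive cells (right), with exact 95% binomial intervals and dashed group means. On the left the 3 control libraries (0.627% to 2.85%) lie above the 3 asthma libraries (0.106% to 0.584%), and on the right control replicate 2 falls among the asthma libraries.

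The depth of the cDC1 overlapped between the groups. Their median UMIs per cell were 10497, 17664.5 and 14319.5 in the control libraries and 16577, 15152 and 11439 in the asthma libraries. Their median mitochondrial share, however, was 5.15%, 5.45% and 5.68% in control and 4.24%, 3.36% and 3.11% in asthma, without overlap (exact permutation test, n = 3 each, p = 0.1). Over all cells that passed quality control the mitochondrial medians overlapped, but the median UMIs did not, at 4218, 4853 and 4599.5 in control and 3966, 3790 and 4012 in asthma. The part of these differences in the results was not tested, apart from thinning each cell to 1500 UMIs. Cells with fewer UMIs were dropped at this step, and the gates were applied again to the thinned counts. The difference in share was then -1.37 points. Values that use monocytes, the shallowest of the gates, moved more with thinning. The ratio of control to asthma cDC1 per 100 monocytes went from 4.99-fold to 2.48-fold, with asthma replicate 8 at 21.5 per 100 in place of 6.39. Single libraries moved these ratios too, since the first was 7.65-fold without asthma replicate 8 and 3.33-fold without control replicate 3, and the second 4.21-fold and 1.42-fold. After thinning, monocytes made up 6.09% of control and 4.70% of asthma cells, so that the direction of their difference turned. The monocyte gate then held fewer cells in each library. It held 79 in place of 313 in asthma replicate 8, and 80 in place of 387 in replicate 10. The part of dropped cells in these changes was not tested.

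Gene expression was then compared between asthma and control on UMIs summed over the cDC1 of each library, by edgeR's quasi-likelihood test. Asthma replicate 10 with its 5 cells was left out, so that 3 control libraries (744376, 411286 and 1638273 UMIs) stood against 2 asthma libraries (342393 and 264831 UMIs). None of 4341 genes passed a Benjamini-Hochberg adjusted p of 0.05 (0% called), 206 (4.75%) had an unadjusted p under 0.05, and DESeq2 called 15 of 13323. In simulated counts of this comparison the test recovered 3% of 200 genes with a log2 change of 1 and 84% with a change of 2, with 4 and 7 false calls beside 6 and 168 true ones. A change of 2-fold was therefore mostly not detectable in this comparison. Of the genes tested, 474 (10.9%) were higher and 500 (11.5%) lower in both asthma libraries than in all 3 control libraries. The values named for single genes below are CPM on the scale of this fit, with asthma replicate 10 scaled by its own total of 65452 UMIs. In that library 1 UMI equals 15.3 CPM, so low values there rest on very few UMIs.

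No gene of cDC1 identity stood out between the groups. Of 27 such genes in the files 23 were tested. Without overlap 3 were higher (13.0%, against 10.9% of all genes tested) and 1 lower (4.35%, against 11.5%). The median log2 fold change of the 23 was -0.09 (0.00 over all genes tested), and 0 of them had an unadjusted p under 0.05. CST3, the protease inhibitor cystatin C and the most abundant of them, stood at 22912, 19891 and 20157 CPM in the control libraries and 20005, 20110.2 and 25500 CPM in asthma replicates 8, 11 and 10. CPVL, a carboxypeptidase of antigen-presenting cells, stood at 3611, 5916 and 4032 CPM against 4523, 4802 and 4477. TLR3 was at 115, 121 and 90.8 CPM in control against 67.7, 77.0 and 76.4 in asthma, with no overlap (log2 fold change -0.57 ± 0.26 SE, adjusted p = 0.954). BTLA was at 56.2, 96.6 and 94.5 CPM against 147 and 105 in asthma replicates 8 and 11. In replicate 10, with 76.4 CPM, it lay within the control range. Of 9 tested transcription factors of dendritic cells, with a median of 0.03, KLF4 had a log2 fold change of -0.96 and RELB of 0.59, neither past the adjusted threshold (adjusted p = 0.954 and 0.969). ID2, a factor of the cDC1 lineage, was at 1234, 1844 and 1371 CPM against 1363, 1110.2 and 1390.3.

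Genes of antigen presentation spanned a wide range of levels, and none passed the adjusted threshold between the groups by edgeR or DESeq2. Of 14 MHC class II presentation genes in the files 13 were tested, with a median log2 fold change of 0.06. Without overlap 2 were higher (15.4%, against 10.9% of all genes tested) and 0 lower (0%, against 11.5%). CD74, the invariant chain of class II, stood at 17252, 18855 and 20957 in control against 18946 and 20929 in asthma, and HLA-DRA at 10751, 17209.7 and 15558.5 against 16035.5 and 16342. HLA-DOA, a subunit of the DO chaperone that tempers peptide loading, was at 41.8, 43.0 and 48.5 CPM in the control libraries and 106 and 89.1 CPM in asthma replicates 8 and 11, but at 45.8 CPM in asthma replicate 10. Its log2 fold change was 1.12 ± 0.25 SE (adjusted p = 0.668). HLA-DPB1 stood at 1943, 4416 and 2764 CPM against 4759, 5174 and 4385, with a log2 fold change of 0.71 (adjusted p = 0.954). The difference of the asthma effect between cDC1 and macrophages had an unadjusted p under 0.05 for 5 of 14 class II genes (3.98% of all genes tested). Its median was 0.34, with 2 of 14 lower. Against monocytes this held for 3 of 14 (4.68%), with a median of 0.50 and 2 of 14 lower. None passed the adjusted threshold against either gate. In the class I and cross-presentation list 14 of 17 genes were tested, with a median of -0.06 and 1 lower without overlap (7.14%, against 11.5% of all genes tested). PSMB9, an immunoproteasome subunit, stood at 778, 1049.6 and 931 CPM against 656 and 908, and HLA-E at 823, 752 and 941 against 815 and 798. The 2 class I genes with the smallest p were the peptide trimmer ERAP1 (log2 fold change 0.54) and the peptide-loading chaperone TAPBP (0.40), both with an adjusted p of 0.986, and TAPBP had 0 UMIs in asthma replicate 10.

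In the uptake, sensing and costimulation lists no gene passed the adjusted threshold by edgeR. Of 6 tested uptake receptors, with a median of 0.15, CD68 had a log2 fold change of 0.97 and HAVCR2 of 0.32 (adjusted p = 0.954 and 0.986). CD68 was at 63.4, 85.9 and 34.4 CPM against 91.2 and 134. In asthma replicate 10 it was at 15.3 CPM, below all 3 control libraries, but this is only 1 UMI. FCER1G, the shared Fc receptor chain, was at 553, 438 and 508 CPM against 259 and 802, with 351 in replicate 10. Of 9 tested genes of nucleic acid sensing 3 were lower without overlap (33.3%, against 11.5% of all genes tested), with a median of -0.15. MYD88, the adaptor of most Toll-like receptors, was at 66.3, 64.4 and 89.6 against 35.3, 52.7 and 45.8 CPM for asthma replicates 8, 11 and 10 (log2 fold change -0.80 ± 0.32 SE, adjusted p = 0.954), and IRF3 at 98.0, 142 and 115 against 91.2 and 122. Of 9 tested costimulation and checkpoint genes 1 was higher and 1 lower without overlap (11.1% each, against 10.9% and 11.5% of all genes tested), with a median of 0.04. CD83, a surface protein of activated dendritic cells, was the lower one, at 811, 585 and 619 against 386 and 219 CPM for asthma replicates 8 and 11 (log2 fold change -1.14 ± 0.29 SE, adjusted p = 0.717 by edgeR), while asthma replicate 10 had 642 CPM. DESeq2 called it (-1.15, adjusted p = 0.0199). CD48 was at 1028, 998.6 and 1046 CPM against 927 and 1325.

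Of 8 tested cytokines and chemokines 1 was lower without overlap (12.5%, against 11.5% of all genes tested). Another met the filter on low counts through control libraries and 0 asthma libraries, so no median is given. The lower gene was IL1B, the inflammasome-processed cytokine interleukin-1β, at 572, 137 and 385 CPM in the control libraries and 44.1, 85.1 and 61.1 CPM in asthma replicates 8, 11 and 10. All 3 asthma libraries were below all 3 control libraries, an order whose share over all genes was not counted. The log2 fold change was -2.55 ± 0.57 SE (adjusted p = 0.668). With asthma replicate 10 in the fit it was also -2.55 (adjusted p = 0.482). IL1B passed with DESeq2 (-2.52, adjusted p = 0.00146) and by edgeR without control replicate 2, the lowest control library (-2.92, adjusted p = 0.0192). IL1B was detected in 53 of 73, 12 of 22 and 78 of 116 control cDC1 and in 4 of 20, 2 of 5 and 7 of 25 asthma cDC1, and its highest cell held 3.94% of its UMIs. In monocytes of the 6 libraries IL1B was at 2395, 1115, 1928, 1063, 1232 and 876 CPM, and in macrophages at 497, 355, 554, 284, 522 and 334 CPM (both scaled by the gate's own total). The asthma effect in cDC1 minus that in monocytes was -1.43 ± 0.37 SE and that in macrophages -1.71 ± 0.45 SE on the log2 scale, neither past the threshold (adjusted p = 0.609 and 0.649 by edgeR). With asthma replicate 10 included the difference from macrophages was -1.91 and passed (adjusted p = 0.0439). TGFB1 was at 357, 244 and 360 CPM against 250 and 348. CCL22 had a log2 fold change of 3.44 (adjusted p = 0.954), which became -7.40 without asthma replicate 8, the library of the cell described above. Asthma replicate 11 had 0 UMIs of CCL22, so the size of the latter value depends on the prior count of the fit.

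The maturation and migration list had 9 tested genes, of which 1 met the filter through control libraries and 0 asthma libraries, and none without overlap. BIRC3, an inhibitor of apoptosis, was at 369, 612 and 328 CPM against 391 and 215, MARCKSL1 at 248, 553 and 195 against 333 and 138, and LAMP3 had a log2 fold change of -1.50 (adjusted p = 0.972). In both most abundant genes control replicate 2 was highest, the library with FSCN1 at 387 CPM. Of 23 interferon-stimulated genes 8 were tested, and 1 of the 8 met the filter on low counts through control libraries and 0 asthma libraries, so no count or median over them is given. GBP1, an interferon-inducible GTPase, was at 38.9, 67.1 and 71.2 against 20.6, 20.3 and 15.3 CPM for asthma replicates 8, 11 and 10 (log2 fold change -1.53 ± 0.43 SE, adjusted p = 0.829). It is the gene that met the filter through the control libraries alone, which favoured a lower value in asthma. It became 1.32 when cells with an exclusion gene were kept, and IFI6, at -1.06 here (adjusted p = 0.954), became 1.94. IFI6 had 168 CPM in asthma replicate 10, above all 3 control libraries, and its value with that library in the fit was -0.10. IRF1 was at 98.0, 126 and 147 CPM against 147 and 52.7, with 413 CPM in replicate 10, and its log2 fold change turned from -0.27 to 0.39 with that library. Of 5 tested genes of type 2 inflammation none separated the groups, with a median of 0.07, and PTGER4, a prostaglandin E2 receptor, stood at 164, 164 and 154 CPM against 182 and 64.8 (log2 fold change -0.33, adjusted p = 0.999), with 321 CPM in asthma replicate 10.

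**Figure D4:**
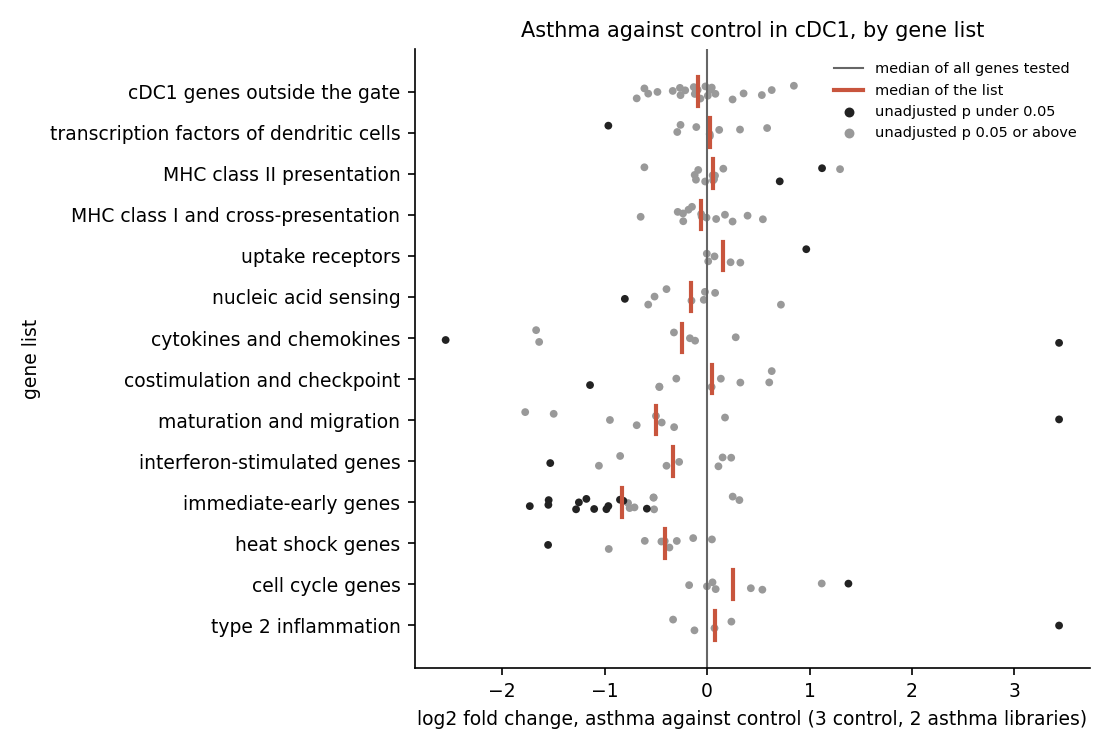
Log2 fold change of asthma against control (3 control and 2 asthma libraries) for each tested gene of 14 lists, 1 point per gene, dark where the unadjusted p was under 0.05. The bars are list medians, and that of the immediate-early genes (-0.83) is the lowest, while no gene passed the adjusted threshold by edgeR. The filter on low counts favoured the direction of 3 cell cycle genes and of 1 gene each among the cytokines, the maturation genes and the interferon-stimulated genes.

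The immediate-early genes, which cells switch on within minutes of a stimulus, stood lowest of the 14 lists. Of 23 in the files 20 were tested, and 18 of 20 were lower in the 2 asthma libraries (49.9% of all genes tested), 14 of them without overlap (11.5%), with a median log2 fold change of -0.83. An unadjusted p under 0.05 was found for 12 of 20 (4.75% of all genes tested) and an adjusted p under 0.05 for 0 by edgeR. DESeq2 called 5 of 23 (15 of 13323 over all genes), and edgeR without a filter on low counts 8 of 23 (77 of 13324 over all genes). The median became -0.48 when cells with an exclusion gene were kept, a setting added after seeing the data. IER3, a regulator of cell survival, was at 284, 220.1 and 293 against 100.1 and 81.0 CPM for asthma replicates 8 and 11 (log2 fold change -1.55 ± 0.26 SE, adjusted p = 0.329). The AP-1 subunit FOSB was at 1012, 612 and 984 CPM against 324 and 271 (-1.55 ± 0.28 SE, adjusted p = 0.329), and FOS, another subunit of AP-1, at 3569.65, 2392 and 2917 against 1571 and 863 (-1.28 ± 0.29 SE, adjusted p = 0.668). ZFP36, which promotes decay of cytokine mRNA, was at 2206, 1468 and 2075 CPM against 1198 and 928.

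The third asthma library did not follow this pattern. Its 5 cDC1 had 321 CPM of IER3, 1008 of FOSB, 3697 of FOS and 3361 of ZFP36, each above the 3 control libraries when these are scaled by their own totals too. Summed over the list, the level was 12061, 8159.77 and 11377 CPM in the control libraries and 6629.81, 17356 and 4146 CPM in asthma replicates 8, 10 and 11. With asthma replicate 10 in the fit the median became -0.29, with 15 of 20 genes lower and 0 called. The other cells of the same libraries showed part of the same order, since the list summed to 11584, 9578 and 11956 CPM in all cells outside the cDC1 of the control libraries and to 8747, 12065 and 6396 CPM in those of asthma replicates 8, 10 and 11. In monocytes of the 5 libraries the list's median log2 fold change was -0.33 (18 of 23 genes lower) and in macrophages -0.54 (20 of 22 lower). The difference of the asthma effect between cDC1 and monocytes had an unadjusted p under 0.05 for 10 of 23 genes (4.68% of all genes tested) and that between cDC1 and macrophages for 3 of 22 (3.98%), with none past the adjusted threshold. Heat shock genes, which encode chaperones of protein folding, had 9 tested genes with a median of -0.41, 8 lower (49.9% of all genes tested) and 3 of them without overlap (11.5% of all genes tested). DNAJB1, a co-chaperone, was at 264, 102 and 132 CPM against 47.1 and 68.9, with 107 in asthma replicate 10, within the control range (log2 fold change -1.55 ± 0.44 SE, adjusted p = 0.829), BAG3 had -0.96 (adjusted p = 0.954), and the constitutive HSPA8 and HSP90AB1 were at 1804, 1619 and 1818 against 1589 and 1592 CPM and at 1268, 1211 and 1002 against 1212 and 1183 CPM.

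**Figure D5:**
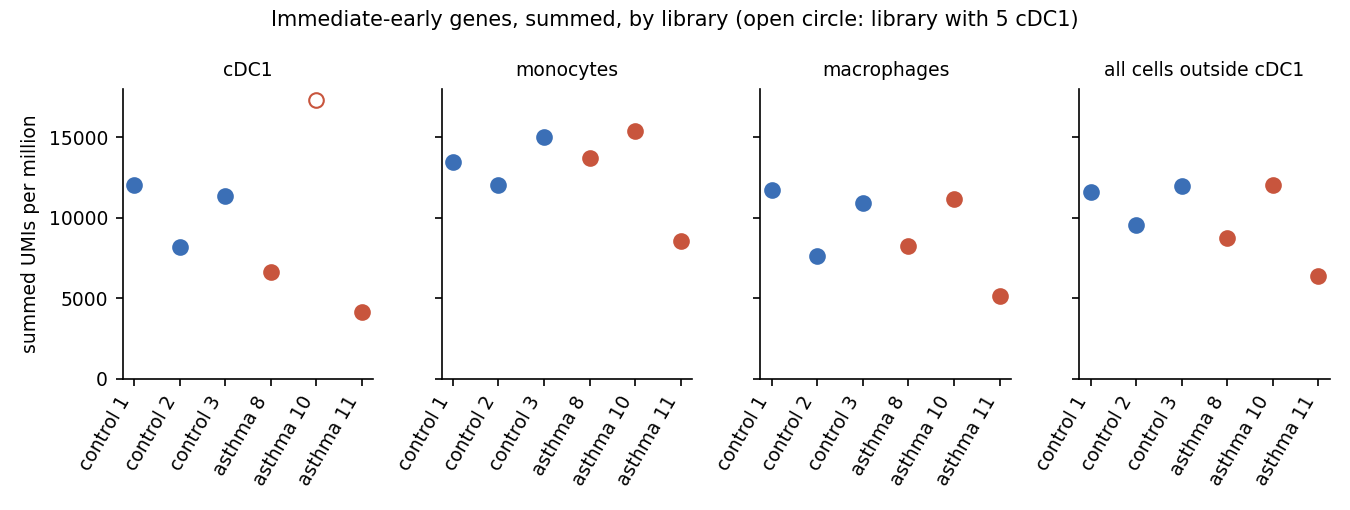
Summed level of the immediate-early genes, in CPM, in cDC1, monocytes, macrophages and all cells outside the cDC1 of each library (blue control, red asthma). In cDC1 asthma replicates 8 and 11 lie below the control libraries and replicate 10, with 5 cDC1 (open circle), lies at 17356, and replicate 11 is the lowest library in all 4 panels.

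Cycling was examined as well. MKI67 or TOP2A, which mark dividing cells, was detected in 8 of 73, 1 of 22 and 11 of 116 cDC1 of the control libraries and in 1 of 20, 0 of 5 and 2 of 25 of the asthma libraries. MKI67 was found in 5.36% of cDC1, 1.39% of monocytes and 2.36% of macrophages. Of 19 cell cycle genes in the files 8 were tested. The filter asked for at least 24.3 CPM in 2 libraries, and 3 of the 8 met it with both asthma libraries and fewer than 2 control libraries (168 of the 4341 genes tested), so that their direction was favoured by the filter and no count or median over the list is given. MCM2, a replication helicase subunit, was at 18.7, 5.37 and 13.5 CPM against 41.2 and 28.4 (log2 fold change 1.38, adjusted p = 0.954) and TYMS, the thymidylate synthase, at 17.3, 2.68 and 25.2 against 35.3 and 44.6 (1.12, adjusted p = 0.954), and both are among these 3 and had 0 UMIs in asthma replicate 10. TUBA1B stood at 1167, 1049.6 and 824 CPM against 1074 and 948, and STMN1 at 154, 43.0 and 129 against 174 and 129.665.

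Of the 10 genes with a symbol and the smallest p, 5 were outside the lists, and none passed the adjusted threshold by edgeR. DESeq2 called 6 of the 10, namely FOSB, IER3, FOS, IL1B, TBC1D8 and PDE4B (PDE4B with a log2 fold change of -1.48, adjusted p = 0.0458). TBC1D8, a putative Rab GTPase activator, was at 51.9, 83.2 and 100.04 against 259, 219 and 107 CPM for asthma replicates 8, 11 and 10 (log2 fold change 1.59 ± 0.28 SE, adjusted p = 0.329). PDE4B, a phosphodiesterase that breaks down cAMP, was at 133, 164 and 129 CPM against 55.9, 44.6 and 91.7 (-1.46 ± 0.27 SE, adjusted p = 0.329). MS4A6A, a membrane protein of myeloid cells, was at 49.0, 69.8 and 57.1 CPM against 121, 178 and 107 (1.36 ± 0.27 SE, adjusted p = 0.381). For these 3 genes all 3 asthma libraries lay on the same side of all 3 control libraries. The genes were picked by their p in the same data, and the share of all genes with this order was not counted. For TBC1D8 the margin was small, at 107 CPM in asthma replicate 10 against 100.04 in control replicate 3. The transcriptional regulator HES6 was at 27.4, 8.05 and 9.82 CPM against 61.8 and 89.1 (2.31 ± 0.49 SE, adjusted p = 0.517) but had 0 UMIs in asthma replicate 10. It too met the filter with both asthma libraries and 1 control library, which favoured a higher value in asthma. ERBIN was at 37.5, 37.6 and 44.2 against 112 and 72.9, with 30.6 in replicate 10 (1.21 ± 0.28 SE, adjusted p = 0.692).

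Whether the asthma effect in cDC1 differed from that in monocytes or macrophages was tested in the same 5 libraries by an interaction with the library as a block. Against monocytes 0 of 9230 genes passed by edgeR (0% called), with 432 at an unadjusted p under 0.05 and 0 by DESeq2. MS4A6A had the difference of 1.97 ± 0.33 SE on the log2 scale (adjusted p = 0.117), with a log2 fold change of 1.36 in cDC1 and -0.59 in monocytes. It passed with asthma replicate 10 included (1.95, adjusted p = 0.0130) and without control replicate 1 (1.88, adjusted p = 0.0216). Against macrophages 8 of 9518 genes passed by edgeR (0.0841% called), all lower in cDC1, and 1 by DESeq2. Of these 8 genes 5 had a symbol, namely SFTPC, SFTPD, SFTA2, SLC34A2 and PGC, which alveolar type 2 cells express. In cDC1 SFTPD had 153 UMIs in control replicate 1 and 0 to 2 in the other libraries, and 149 of the 153 were in the SFTPC-rich cell described above. Without this 1 cell, a setting chosen after seeing the data, 0 of 9489 genes passed by edgeR, and the difference was -2.87 for SFTPC (adjusted p = 0.864) and -1.98 for SFTPD. It was still -6.52 for PGC and -10.22 for 1 of the genes without a symbol (adjusted p = 0.0842 for the latter). With the whole of control replicate 1 left out SFTPC still passed, at -4.06 (adjusted p = 0.00589).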

How the data were processed

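Single-cell suspensions of lung were captured with droplet-based 3′ chemistry. According to the file headers and the study's methods, the authors aligned reads with Cell Ranger (4.0.0 in the headers, 2.1.1 in the submitters' processing notes, and another version in the study's methods) to macFas6 and deposited raw UMI counts (integers, not normalized) for every gene and barcode. Genes were kept apart by identifier, 16816 of 28623 having a symbol of their own. CD1C was not analysed here. The 6 libraries held 25566619 to 35023716 UMIs in cells that passed quality control.

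The rule for cDC1, the gene lists and the tests were chosen with earlier results of these data known. Levels are UMIs per 1000000 of the UMIs summed per library and gate. Shares were compared by a two-sided exact permutation test over 20 assignments, with Clopper-Pearson 95% intervals. Summed counts were tested with edgeR 4.0.16 in R 4.3.3 (quasi-likelihood, TMM, filterByExpr) in libraries with at least 10 cDC1, with calls made at an adjusted p of 0.05 and a log2 fold change beyond 0.25 in either direction, with standard errors from the quasi-likelihood F. The 10 genes of the rule were left out of the calls, and for interactions also those of the other gate. The Wilcoxon test of the study takes cells as replicates and was not used. In simulated counts the test recovered 84% of genes with a log2 change of 2 but only 3% of those with a change of 1.

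Genes were named by a rule: the rule and marker genes, for each list the 2 most abundant members and the 2 with the smallest p, the 10 genes with a symbol and the smallest p, and the 15 genes highest against other gates among those compared. HLA-DQA1 and IDO1 were chosen after their values were seen. One gene that the rule names is not reported here. Alternatives were DESeq2 1.42.0, no filter on low counts, a mitochondrial maximum of 10%, at least 200 genes, at least 3 of the 5 genes, removal of the highest Scrublet scores (scanpy 1.11.5, at a share that rose with the number of cells), cells thinned to 1500 UMIs and each library left out. Added after seeing the data were asthma replicate 10 in the fits, exclusion genes not applied, ratios to other gates, and 1 cell left out. Thinning dropped cells with fewer than 1500 UMIs. Doublets were otherwise kept. 1 library per monkey was the replicate.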

Additional observations from a re-analysis of the deposited data

Results flagged for a closer look

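The asthma effect differed between cDC1 and macrophages in 8 genes by the interaction test (edgeR, adjusted p from 0.00614 to 0.0294). The differences were -7.54 for SLC34A2, -7.01 for SFTA2, -6.42 for SFTPD, -10.99 for PGC and -5.68 for SFTPC on the log2 scale, and -6.96, -6.88 and -10.20 for 3 genes without a symbol. SFTPC was at 5376, 38.9 and 7.32 CPM in cDC1 of the control libraries and 11.7 and 196 CPM in asthma replicates 8 and 11, and in macrophages at 538, 19.95 and 11.8 CPM against 688 and 1833. PGC had 97 UMIs in cDC1 of control replicate 1 and 0 in those of the other libraries, so its fitted value depends on the prior count and is no bound. The gene with the difference of -10.20 had 4 UMIs in all cDC1, and 11369 UMIs in macrophages of asthma replicate 8 against 22 in those of replicate 11. With the cell of control replicate 1 that held 3906 SFTPC UMIs left out, none of these 8 genes passed, and the difference was -2.87 for SFTPC, -2.00 for SLC34A2, -1.98 for SFTPD and 2.01 for SFTA2, but still -6.52 for PGC and -10.22 for the gene with 4 UMIs in cDC1 (edgeR, adjusted p = 0.0842 for the latter). With the whole of control replicate 1 left out SFTPC passed at -4.06 (edgeR, adjusted p = 0.00589), and without asthma replicate 8 SLC34A2 and PGC passed.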

How the results depend on the processing

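The share of cDC1 kept its direction and its exact permutation p = 0.1 over all cells under each alternative that kept all 6 libraries, with differences from -2.26 points (exclusion genes not applied) to -1.16 points (at least 200 genes, no maximum), and ranged from -1.85 to -0.738 points with a library left out. Of PTPRC-positive cells it ranged from -2.64 to -1.41 points and from -2.19 to -0.776 points, and the exact p was 0.1 for thinned cells and without the exclusion genes. The number of genes called in cDC1 was 0 under the other cell filters, 77 without a filter on low counts (25 up, 52 down), 15 with DESeq2, and 0 to 2 with a library left out (CCK and IL1B without control replicate 2, and 2 genes without a symbol without asthma replicate 8). Where 1 asthma library was left, it was assumed to vary like the control libraries. Against monocytes 48 genes were called without a filter, 8 with asthma replicate 10 included and 0 to 9 with a library left out, 9 of them without control replicate 1 (LAMP3 -5.82 and FSCN1 -4.29 among them). Against macrophages 58 were called without a filter, 1 with DESeq2, 16 with asthma replicate 10 included, 0 without the SFTPC-rich cell and 1 to 9 with a library left out, 4 of them without control replicate 1 (SFTPC among them) and 1 without asthma replicate 11. The cause of these shifts was not tested. Of the 30 genes whose fold changes were followed, 241 of 264 values under alternatives other than left-out libraries had the same direction without a call, 19 were called and 4 were reversed. The reversed values were -0.10 for HAVCR2, 1.32 for GBP1 and 1.94 for IFI6 without the exclusion genes and 0.053 for PTGER4 with asthma replicate 10 included. With a library left out ERAP1 ranged from -0.034 to 1.001, HAVCR2 from -0.16 to 0.59, CCL22 from -7.40 to 4.26 and PTGER4 from -1.31 to 0.15. The genes of DESeq2 included FOSB (-1.55), IER3 (-1.56), FOS (-1.29), IL1B (-2.52), CD83 (-1.15) and TBC1D8 (1.59). No paired analysis was possible because the groups share no replicate numbers. The 5 cDC1 of asthma replicate 10 and the 20 to 25 of the other asthma libraries limit every gene level.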

Other observations

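Some genes varied widely between monkeys of the same group, given here in CPM of each library's own cDC1 total. HLA-DQA1, a class II chain whose locus varies between animals, was at 18.8, 129 and 864 CPM in cDC1 of the control libraries and 96.4, 259.7 and 1548 CPM in asthma replicates 8, 10 and 11, with a UMI in 12 of 73, 19 of 22, 111 of 116, 14 of 20, 4 of 5 and 24 of 25 cells. HLA-DRA varied far less, from 10022 to 20366 CPM on this scale. CCK, which encodes the hormone cholecystokinin, was at 427, 0 and 566 CPM in the control libraries and 43.8, 0 and 3.78 CPM in the asthma libraries. It was spread over cells, with a UMI in 57 of 73 and 109 of 116 cDC1 of control replicates 1 and 3, in 0 of 22 of control replicate 2, and in 5 of 20, 0 of 5 and 1 of 25 of the asthma libraries. The cDC1 held 44.3% of all CCK UMIs.

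Granzyme B (GZMB), a cytotoxic protease that plasmacytoid dendritic cells also make, had 380 UMIs in 65 cDC1. The 3 highest cells held 208 of them. The plasmacytoid markers summed to 193, 75.4 and 269.8 CPM in the control libraries and 114, 61.1 and 90.6 CPM in the asthma libraries, with CLEC4C at 0. The CD1C-type markers summed to 157 to 259.9 CPM in the 6 libraries, and PKIB held 642 of their 722 UMIs.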
